A study of Mus musculus with 7 samples.

Results

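Exonic GATA2-only peaks outside promoters are sites in exons where HA-tagged GATA2 gave a peak and the variant 9aa-Ins did not. They were chosen by 2 rules on the peak lists of the series: a peak of the GATA2 list that overlapped no peak of the 9aa-Ins list by 1 bp or more, with its summit in an exon of a protein-coding gene. Summits within a promoter, from 2 kb upstream to 100 bp downstream of any protein-coding transcript start, were left out. The rules left 311 peaks of the 6254 in the GATA2 list, in 309 host genes. Overlap was missing for 84.7% of all GATA2 peaks, and since it chose the 311 peaks, their heights were not tested against those of 9aa-Ins or of shared peaks.

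GATA2 is a zinc finger transcription factor of blood stem and progenitor cells. It binds DNA at WGATAR (W, A or T; R, A or G), often beside E-box, RUNX or ETS factors, and it is best known for acting from introns and from intergenic enhancers. Exons are bound by transcription factors as well, in coding sequence and in the untranslated regions (UTRs) at either end of a messenger RNA, and exons that lie close behind a transcript start share the open chromatin of the promoter.

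The peaks came from CUT&Tag, in which an antibody guides a transposase to a protein and the DNA around it is cut out, tagged and sequenced. The cells were hi–77−/− cells, mouse fetal liver progenitors immortalized with ER-Hoxb8 that lack, on both alleles, the Gata2 enhancer after which they are named. They carried a retrovirus with GFP and either HA-Gata2 or HA-9aa-Ins, in which amino acids are inserted between the zinc fingers, and GFP+ cells were sorted. Libraries made with anti-HA antibody numbered 2 for each protein, both from 1 pool of sorted cells, and each protein has 1 deposited list for both. The series has 3 further libraries made with anti-GATA2 antibody, whose peaks were not used here. No value therefore has an SD, intervals are Wilson 95% confidence intervals that cover counting error only, and tests compare peaks of these lists rather than cultures.

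The height of a peak is given as its pileup, the number of reads stacked over the summit. The lowest pileup that made a peak was 9 reads in both lists, on a background of 0.464 reads (GATA2) and 0.455 reads (9aa-Ins). Absence from the 9aa-Ins list means only that no peak was called. Exonic GATA2-only peaks had a median pileup of 13 reads (quartiles 12 and 16, range 9 to 46), beside 14 reads for intronic, 15 reads for intergenic and 14 reads for promoter GATA2-only peaks. The 68 exonic peaks that GATA2 shared with 9aa-Ins had a median of 20 reads. That difference was not tested, because overlap chose both groups. Only 29 of the 311 peaks exceeded 20 reads, and 122 (39.2%) had 12 reads or fewer.

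Sequences at 7 peaks with WGATAR are shown first, taken from the highest peaks and from the highest of those with 2 or more WGATAR, so that the motif and its surroundings can be read (Oit3 and Aplf, of the second kind, had 15 reads each). They come from the RefSeq record of GRCm38.p6 (the assembly of mm10), run 5′ to 3′ on the strand of the host gene, and carry WGATAR, or its reverse complement YTATCW, in capitals. Peaks with a summit in a UTR, and those with a coding summit that other transcripts annotate as UTR, are shown by 30 bases around the motif nearest to the summit.
Vamp8 (chr6:72389807-72389836, minus strand): tgttcaaaagccTTATCTagaggcctcctg
Traip (chr9:107972046-107972075, plus strand): gtctgtggagggTTATCTtgattgtgccta
Slc35b4 (chr6:34156290-34156319, minus strand): agatgtaagaacAGATAAgagtgcgggctc
Mamdc2 (chr19:23353372-23353401, minus strand): cctctgcaacttTTATCAagacaaagaggg
Aplf (chr6:87658902-87658931, minus strand): ggttaacttaccTGATAAgacaactggtgc
Angpt1 (chr15:42438275-42438405, minus strand): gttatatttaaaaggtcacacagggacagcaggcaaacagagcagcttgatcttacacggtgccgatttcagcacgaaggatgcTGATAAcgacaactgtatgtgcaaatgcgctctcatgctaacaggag
Oit3 (chr10:59430893-59431015, minus strand): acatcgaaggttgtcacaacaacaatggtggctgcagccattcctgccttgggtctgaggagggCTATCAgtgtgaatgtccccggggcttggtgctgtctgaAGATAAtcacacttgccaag
The stretches of Angpt1 and Oit3 lie in coding sequence over their whole length of 131 and 123 bases. The same holds for the 30 bases of Mamdc2 and of Aplf.

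The highest peak, with 46 reads, lay in the 5′ UTR of Vamp8 (chr6:72389486-72390515), which encodes a SNARE protein of vesicle fusion, 105 bp behind its start. That summit was just past the promoter limit of 100 bp, and the peak reached back across the start. Traip, which encodes a ubiquitin ligase of the replication machinery, held the next, with 36 reads in its 3′ UTR (chr9:107971623-107972421), 3.51 kb upstream of the start of the neighbouring gene Uba7. Sufu, an inhibitor of Hedgehog signalling, held a peak of 29 reads in its 3′ UTR (chr19:46454926-46455567) without WGATAR within 100 bp of the summit. Vamp8 and Traip thus stood apart in height, and both held WGATAR.

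Angpt1, the ligand of the receptor tyrosine kinase Tie2 on stem and endothelial cells, held 2 of the 20 peaks with 23 reads or more. The higher, with 28 reads, lay in an internal coding exon (chr15:42438095-42438607) 239 kb from the nearest start, and its TGATAA was centred 6.5 bp from the summit. The other, with 23 reads, lay in the 5′ UTR (chr15:42676737-42677025) 114 bp behind the start, with 1 WGATAR 58.5 bp from the summit. No 9aa-Ins peak lay within 4 Mb of either.

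Slc35b4, a nucleotide sugar transporter, carried 2 peaks as well. Its 3′ UTR peak had 27 reads (chr6:34156030-34156642) with AGATAA centred 2.5 bp from the summit, and its 5′ UTR peak had 15 reads (chr6:34176583-34177087), 198 bp behind the start, without WGATAR. In all, 11 genes held 2 of the peaks, among them Angpt1, Slc35b4, Gata2, Jun, Ier2, Hlcs, Ubald1, Ccsap, Mroh2a and Smim3.

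Mamdc2 held a coding peak of 25 reads (chr19:23353271-23353513) with 2 WGATAR. Stab2, which encodes a scavenger receptor for hyaluronan, had a peak of equal height (chr10:86990643-86991023) with 3 WGATAR, in an exon that only a processed transcript without coding sequence contains. Pik3r3, a regulatory subunit of phosphoinositide 3-kinase, also reached 25 reads, in its 3′ UTR (chr4:116300959-116301493) and without WGATAR. Peaks of 24 reads lay at Arsa (arylsulfatase A), Crisp2, Emilin2 (a matrix glycoprotein) and Iffo1, and peaks of 23 reads at Slc35e4, Zpbp2 and Oxsm (a mitochondrial fatty acid synthesis enzyme) completed the 15 highest. In all, 8 peaks had 23 reads, and their order by q-value and then position alone set which 3 of them are among the 15 (the other 5 were at Angpt1, Tsc2, Ubxn11, Clec4d and Klf1). Of the 20 peaks with 23 reads or more, 13 held WGATAR.

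**Figure D1:**
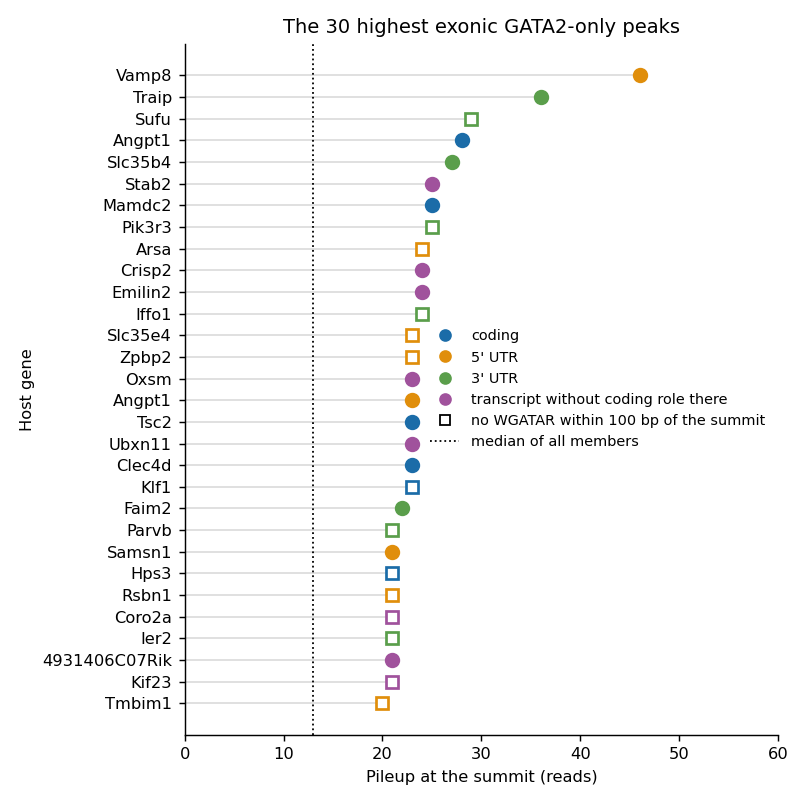
Pileup at the summit, in reads, for the 30 exonic GATA2-only peaks of highest fold enrichment (host gene on the vertical axis). Filled circles hold WGATAR within 100 bp of the summit, open squares do not, colours give the annotation at the summit, and the dotted line is the median of all 311 peaks, 13 reads. Vamp8 and Traip stand apart at 46 and 36 reads, and the peaks from Sufu on lie between 29 and 20 reads.

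The peaks lay in several parts of the genes. The summit lay in coding sequence of a protein-coding transcript in 118 peaks, in a 5′ UTR in 81, in a 3′ UTR in 41 and in a UTR of both kinds in 1, where Rpl35 and Wdr38 overlap. In the remaining 70, the exon belonged only to transcripts without a coding role at that base, of which 52 were retained introns and 17 processed transcripts. These 70 are exonic by annotation alone, since the protein-coding transcripts of the same genes do not use those bases. The summit lay in the first exon of at least 1 transcript in 217 peaks (69.8%), in a last but no first exon in 61, and in internal exons only in 33.

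Most exonic peaks lay just behind a start. The nearest protein-coding start was within 200 bp of the summit in 113 of 311 peaks (36.3%, interval 31.2% to 41.8%) and within 500 bp in 163 (52.4%, interval 46.9% to 57.9%). All 163 lay downstream of the start, as the limit of the rule sets. Among intronic GATA2-only peaks, 9.76% (interval 8.32% to 11.4%) lay within 500 bp of a start. The exonic peaks within 500 bp were in 5′ UTRs (72 peaks), coding sequence (58), transcripts without coding role (31), a 3′ UTR (1) and a UTR of both kinds (1). By contrast, 48 lay over 10 kb from any protein-coding start, of which 22 were in 3′ UTRs, 20 in coding sequence, 6 in other transcripts and 0 in 5′ UTRs.

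**Figure D2:**
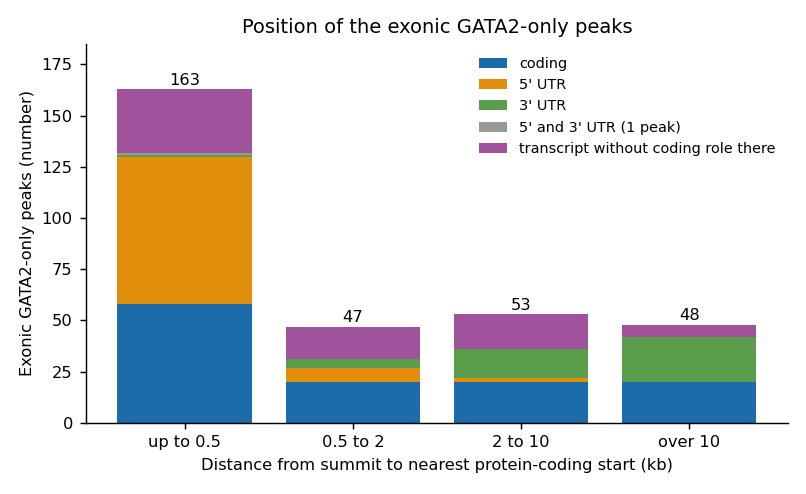
Number of exonic GATA2-only peaks by distance from the summit to the nearest protein-coding transcript start (kb, horizontal axis), with the annotation at the summit in colour. Peaks up to 0.5 kb from a start number 163, mostly 5′ UTR and coding, whereas 3′ UTR and coding peaks make up most of the 48 beyond 10 kb.

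The peaks nearest to each limit of the rule, inside and outside it, had the following heights. Ccdc138 and Pole4 held summits 101 bp behind a start, with 19 and 18 reads, and Mff 103 bp behind, with 11 reads. GATA2-only peaks left out as promoter peaks at 100 bp lay at Bag6 (20 reads), Fads2 (21 reads) and Arv1 (19 reads). On the far side, the nearest upstream member was in Mc1r, which encodes the melanocortin 1 receptor, at -2005 bp relative to the Tubb3 start with 18 reads, and the nearest exonic peak left out lay at -1632 bp relative to an Epb41 start with 15 reads. For overlap, the closest member to a 9aa-Ins peak was at Cdk6, a cyclin-dependent kinase, 71 bp away, with 12 reads (31.4% of the 30-base words around it occurred elsewhere in the genome), and 6 members had a 9aa-Ins peak within 1 kb. The exonic shared peaks of smallest overlap were at Ppan (70 bp, 17 reads) and Rpl27a (85 bp, 11 reads).

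In addition, 118 of the 311 peaks (37.9%) lay within the promoter window of a transcript that is not annotated as protein-coding, such as a retained intron (47 peaks), a processed transcript (46 peaks) or an antisense transcript (26 peaks). With the starts of all transcripts counted as promoters, 193 exonic peaks remained. WGATAR was present in 12.7% of the 118 (interval 7.86% to 19.9%) and in 27.5% of the 193 (interval 21.7% to 34.2%).

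Exons took more of the non-promoter GATA2-only peaks than their length. They make up 3.25% of the genome outside promoters and held 311 of 2836 such peaks, or 11% (interval 9.87% to 12.2%), a ratio of 3.37. Over 2 kb from every protein-coding start, exons make up 2.81% of the bases and held 101 of 2325 peaks, or 4.34% (interval 3.59% to 5.25%), a ratio of 1.55. In peaks per megabase, these distant exons had 1.38 and the rest of the distant genome had 0.878. Unmappable bases were not removed from these lengths.

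Of the 311 exonic peaks, 68 held WGATAR within 100 bp of their summits, or 21.9% (interval 17.6% to 26.8%), beside 33.3% of all GATA2-only peaks. Intronic GATA2-only peaks had it in 742 of 1414 (52.5%), a difference of -30.6 percentage points (interval -35.6 to -25; Fisher's exact test, two-sided, adjusted over 5 tests p = 2.65e-23). Intergenic peaks had it in 595 of 1111 (53.6%), a difference of -31.7 points (interval -36.8 to -26; Fisher's exact test, adjusted p = 1.85e-23). Promoter peaks, in contrast, had it less often than exonic peaks, in 359 of 2460 (14.6%), a difference of 7.27 points (interval 2.79 to 12.4; Fisher's exact test, adjusted p = 0.00244), which did not pass with exons of protein-coding transcripts only (p = 0.108) or with the basic transcript set of GENCODE (p = 0.316).

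The distance from a start went along with this share. Among exonic peaks up to 500 bp from a protein-coding start, 16 of 163 held WGATAR (9.82%, interval 6.13% to 15.3%), and the share was 17.0% from there to 2000 bp (8 of 47), 37.7% up to 10 kb (20 of 53) and 50% beyond 10 kb (24 of 48, interval 36.4% to 63.6%). Intronic peaks showed the same order, with 13%, 34.4%, 54.5% and 62.8%. The GC content around the summit moved with it, from a median of 67.7% in exonic peaks up to 500 bp to 52.0% beyond 10 kb, and its part in the motif share was not tested.

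Over 2 kb from a start, 44 of 101 exonic peaks (43.6%, interval 34.3% to 53.3%) and 670 of 1119 intronic peaks (59.9%, interval 57% to 62.7%) held WGATAR. The difference was then -16.3 points (interval -26 to -6.16; Fisher's exact test, adjusted over 4 tests p = 0.00837, since promoter peaks have no summits at that distance). Against intergenic peaks at that distance (53.7%), the difference of -10.1 points (interval -19.8 to 0.0659) did not pass (Fisher's exact test, adjusted over the same 4 tests p = 0.121). This split by distance was chosen after the data were seen.

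**Figure D3:**
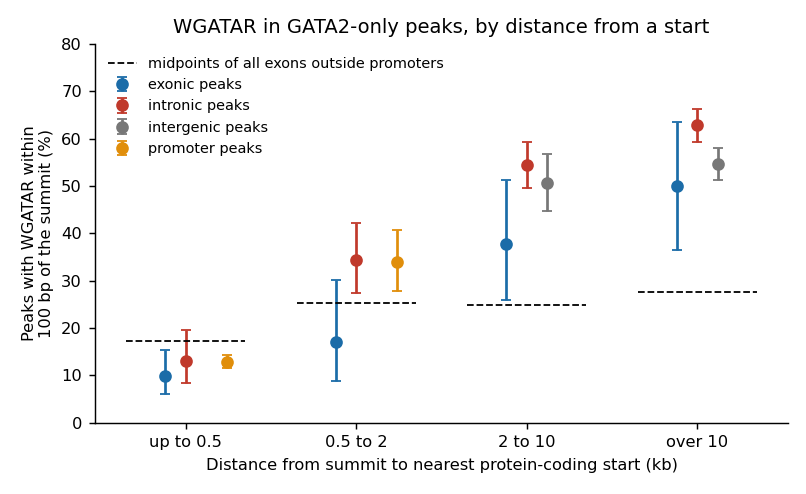
Share of GATA2-only peaks with WGATAR within 100 bp of the summit (%, vertical axis) by distance to the nearest protein-coding start (kb), for exonic, intronic, intergenic and promoter peaks, with Wilson 95% confidence intervals and groups under 20 peaks left out. Dashed lines are midpoints of all exons outside promoters. The exonic share climbs from 9.82% to 50%, and beyond 2 kb it lies above the dashed lines of 24.8% and 27.7%.

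For comparison, midpoints of all exons outside promoters held WGATAR in 26% of windows, and 26.6% of those over 2 kb from a start. The exonic peaks as a whole, at 21.9%, were thus no richer in WGATAR than exons in general, while the 101 distant peaks, at 43.6%, were richer than distant exons and than the windows 2 kb to each side of them (31.2%). Up to 500 bp from a start, the peaks had 9.82% and exon midpoints 17.3%. These comparisons are descriptions without a test, and GC content differed as well, with a median of 62.2% in the peaks and 48.8% at exon midpoints.

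In the distant exonic peaks, the bin with the most WGATAR was beside the summit. Of the 44 distant peaks with WGATAR, 33 had one centred within 50 bp of the summit. Over all 44, the median distance of the nearest motif was 36.5 bp. In the 100 bp to either side of their summits, the 101 distant peaks held 25.7 and 37.6 motifs per 100 peaks, and in the other bins up to 1 kb away they held 10.9 to 33.7. The 210 peaks within 2 kb of a start held 6.67 and 7.14 per 100 peaks beside the summit and 7.62 to 21.9 in the other bins. Intronic peaks over 2 kb from a start held 44.1 and 46.4 beside the summit.

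**Figure D4:**
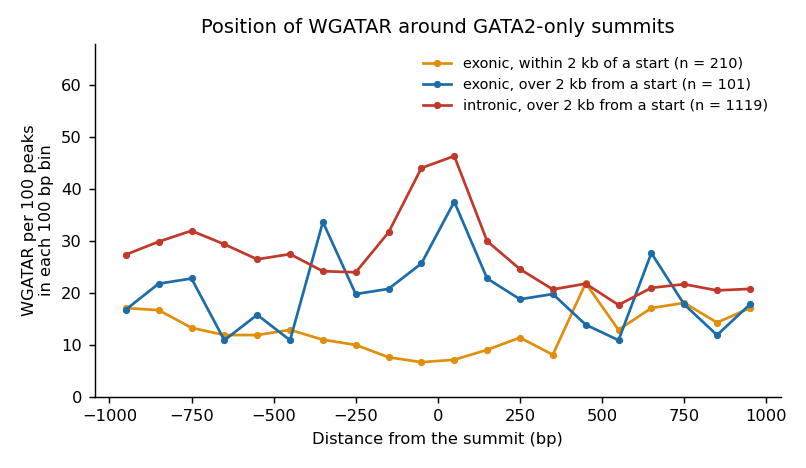
Number of WGATAR per 100 peaks in each 100 bp bin (vertical axis) against the distance from the summit (bp, along the genome), for 210 exonic GATA2-only peaks within 2 kb of a start, 101 exonic peaks farther away and 1119 intronic peaks farther away. Intronic and distant exonic peaks have their highest bin beside the summit, at 46.4 and 37.6 motifs per 100 peaks, whereas exonic peaks close to a start are lowest there, at 6.67.

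The share also went along with height, in a description without a test. Of the 29 peaks over 20 reads, 16 had it (55.2%, interval 37.5% to 71.6%), beside 25% from 16 to 20 reads, 19.8% from 13 to 15, 11.8% at 11 or 12 and 18.9% at 9 or 10. Intronic peaks ranged from 34.2% at 9 or 10 reads to 69.4% over 20 reads. Exonic peaks with WGATAR had a median pileup of 15 reads and those without of 13 reads.

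By annotation, 25 of 118 coding peaks (21.2%) and 20 of 123 UTR peaks (16.3%) held WGATAR, which differed by 4.93 points (interval -4.95 to 14.8; Fisher's exact test, adjusted p = 0.409) and did not pass. The share was 9.88% at 5′ UTRs (8 of 81, interval 5.09% to 18.3%) and 29.3% at 3′ UTRs (12 of 41, interval 17.6% to 44.5%). These intervals overlap at their ends only, which does not show that the shares are equal, and the difference was not tested. Of the 5′ UTR peaks, 72 lay within 500 bp of a start, and of the 3′ UTR peaks, 36 lay over 2 kb away. The median GC content was 68.7% over all 5′ UTR peaks and 53.2% over all 3′ UTR peaks. Exons of transcripts without coding role had 32.9% (23 of 70). Over 2 kb from a start, the shares were 42.5% in coding sequence, 34.2% in UTRs and 60.9% in other transcripts (14 of 23, interval 40.8% to 77.8%).

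Compared with the 68 exonic peaks shared with 9aa-Ins, of which 6 held WGATAR (8.82%, interval 4.11% to 17.9%), the GATA2-only peaks had 13 points more (interval 2.99 to 19.9; Fisher's exact test, adjusted p = 0.0145). Overlap with 9aa-Ins chose both groups and WGATAR did not, and the groups also differed in height, with medians of 13 and 20 reads, whose part in the difference was not tested. The call was lost under 9 of 13 alternatives, such as a q-value of 1e-08 (adjusted p = 0.0524, Fisher's exact test). Of all 379 exonic peaks of the GATA2 list, 82.1% were GATA2-only, beside 93.8% of intronic, 91.6% of intergenic and 78.0% of promoter peaks.

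Among the peaks with WGATAR, 51 held 1 and 17 held 2 or more. The highest of the 17 were those at Traip, Stab2, Mamdc2, Oxsm, Ubxn11, Clec4d (a C-type lectin of macrophages), Faim2 (an inhibitor of Fas-mediated apoptosis), 4931406C07Rik, Capn15 (a calpain protease), Oit3, R3hdm4 and Aplf (a DNA end-joining factor). Parp11, with 15 reads and 2 WGATAR, tied with the last 3 of these and followed them by position alone. Oit3 held a coding peak of 15 reads (chr10:59430796-59431026) with CTATCA and AGATAA, 10.8 kb from a start. At 4931406C07Rik, a peak of 21 reads (chr9:15289280-15289515) held 4 WGATAR, the most of any, in a retained intron. Aplf held 3 in a coding peak of 15 reads (chr6:87658844-87659290). The stretches at Stab2 and 4931406C07Rik, neither of which is coding, show how the motifs are spread over the 201 bases around a summit.
Stab2 (chr10:86990741-86990941, minus strand): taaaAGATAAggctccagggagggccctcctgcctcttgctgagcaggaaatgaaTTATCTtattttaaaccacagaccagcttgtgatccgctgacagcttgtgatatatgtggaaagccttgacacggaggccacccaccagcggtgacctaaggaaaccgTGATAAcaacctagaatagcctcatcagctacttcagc
4931406C07Rik (chr9:15289347-15289547, minus strand): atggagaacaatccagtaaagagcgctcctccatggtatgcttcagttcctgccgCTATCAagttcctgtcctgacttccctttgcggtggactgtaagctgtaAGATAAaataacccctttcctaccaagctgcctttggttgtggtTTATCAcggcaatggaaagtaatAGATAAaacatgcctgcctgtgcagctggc
At Stab2 the nearest motif lies 42.5 bp from the summit, and at 4931406C07Rik the AGATAA at the middle lies 6.5 bp from the summit.

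The arrangement in which an E-box (CANNTG) lies 6 to 14 bases before WGATAR, typical of GATA2 and TAL1 complexes, was found in 7 of the 311 peaks (2.25%, interval 1.09% to 4.57%), and in 1.39% of exon midpoints. Over 2 kb from a start it was found in 6 of 101 exonic peaks (5.94%, interval 2.75% to 12.4%) and in 7.33% of intronic peaks. The 7 peaks, named after their values were seen, lay in coding sequence at Mamdc2, Capn15 and Msantd2, in the 3′ UTR of Trim25, and in transcripts without coding role at Akap13, Ppa2 and R3hdm4. A pair of WGATAR at most 5 bases apart occurred at Amz1 alone, also named after its value was seen, and in 0.45% of exon midpoints.

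Other motifs, searched on either strand in the same windows as WGATAR, were compared by distance from a start. The GC box GGGCGG was present in 52.1% of the peaks up to 500 bp from a start and in 11.9% of those over 2 kb, beside 5.3% of exon midpoints. The ETS core CGGAAG was present in 19.6% (interval 14.3% to 26.4%) and 13.9% (interval 8.44% to 21.9%), which overlap, beside 5.0% of intronic peaks over 2 kb and 5.75% of exon midpoints. TGTGGT, bound by RUNX factors, was instead more frequent in distant exonic peaks, with 7.36% up to 500 bp and 30.7% over 2 kb, close to the 30% of distant intronic peaks. AP-1 (TGANTCA) followed the same order with 1.23% and 12.9%, and the E-box CAGATG with 5.52% and 21.8%. CCAAT was present in 9.2% (interval 5.66% to 14.6%) and 18.8% (interval 12.4% to 27.5%), beside 23.9% of exon midpoints, and any E-box CANNTG in 47.2% (interval 39.7% to 54.9%) and 63.4% (interval 53.6% to 72.1%), beside 68.1%. A match to letters is not a bound site, and shares of the same motifs in all exon midpoints were 14.1% for TGTGGT, 4.98% for TGANTCA and 17.3% for CAGATG.

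**Figure D5:**
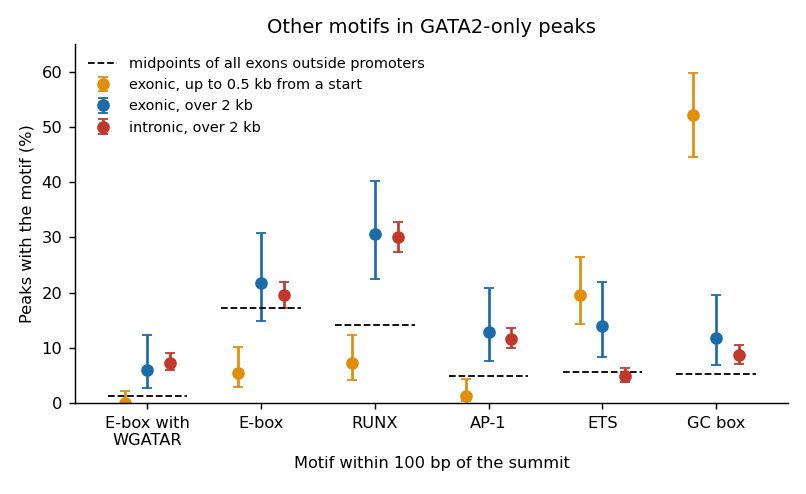
Share of GATA2-only peaks with each motif within 100 bp of the summit (%, vertical axis), for exonic peaks up to 0.5 kb from a start, exonic peaks over 2 kb away and intronic peaks over 2 kb away, with Wilson 95% confidence intervals. Dashed lines are midpoints of all exons outside promoters. Exonic peaks near a start lead for the GC box at 52.1%, and distant exonic peaks lie near distant intronic peaks for RUNX, at 30.7% and 30%.

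Of 82 blood transcription factor genes, 6 hosted an exonic GATA2-only peak (7.32%), beside 1.41% of all 21924 protein-coding genes. Intronic GATA2-only peaks lay in 21 of the same 82 genes (25.6%), beside 5.01% of all. Klf1, the erythroid factor that drives globin and other red cell genes, had the highest of these, with 23 reads in coding sequence (chr8:84903083-84903505) 1.30 kb from its start. Gfi1, a repressor needed by stem cells and neutrophils, had 14 reads in its 5′ UTR (chr5:107724112-107724393), and Lmo4, a LIM-only protein, had 13 reads in its 5′ UTR (chr3:144204756-144205103). Hlf, a factor of stem cells, had 12 reads in its 5′ UTR (chr11:90390661-90390951). Nfix, a nuclear factor I protein, had 11 reads in its 3′ UTR (chr8:84706647-84707140), 396 bp from a 9aa-Ins peak. None of these 5 peaks held WGATAR within 100 bp of the summit, and those of Gfi1, Lmo4 and Hlf lay 170, 192 and 145 bp behind the start of their gene. Lyl1 lies beside the 3′ end of Nfix. A neighbouring 3′ UTR peak of Nfix, shared with 9aa-Ins, had the Lyl1 start as its nearest, 3.92 kb away.

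Gata2 was the remaining factor, with 2 peaks near the detection limit. Its 5′ UTR peak had 11 reads (chr6:88198645-88198837) and its coding peak in exon 3 had 12 reads (chr6:88200258-88200428), both without WGATAR. The coding peak lay wholly within 1 coding exon, whose sequence is also in the retroviral cDNA, so that reads from the virus and from the gene cannot be told apart there. An intronic peak of 22 reads (chr6:88202940-88203822) and a peak of 13 reads upstream (chr6:88189722-88190049) lay at the same gene. The 9aa-Ins list held 0 peaks at Gata2, which for the 2 exonic peaks follows from the rule. Where the reads of the coding peak came from was not tested.

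Among 38 erythroid and megakaryocyte genes, 2 were hosts (5.26%, beside the same 1.41%). Car2, carbonic anhydrase of red cells, had 19 reads in its 5′ UTR (chr3:14886441-14886760), and Fermt3, which activates integrins in platelets and leukocytes, had 17 reads with WGATAR 5.5 bp from the summit (chr19:7017897-7018284) in a transcript without coding role. Of 78 chromatin regulator genes, Chd8 was the 1 host (1.28%, near the background), with 10 reads. No exonic GATA2-only peak lay in the 69 cytokine receptor and signalling genes, the 29 mast cell and granule genes, the 67 histone genes, or the 9 activated and 25 repressed genes that the text of the study names. At a background of 1.41%, lists of these sizes hold about 1 host or none, so that these zeros are no result about the lists. Intronic GATA2-only peaks lay in 6 of the receptor and signalling genes (8.7%) and 6 of the mast cell and granule genes (20.7%), beside 5.01% of all protein-coding genes.

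The study also lists genes regulated by GATA2 and 9aa-Ins and genes regulated ectopically, of which 415 and 347 are protein-coding genes of the annotation. Hosts in the former list were Gata2, Oit3, Anxa1 and Syne1 of the 125 listed as activated (3.2%), and Ehd2, Ephb2, Mamdc2 and Rnf144a of the 290 listed as repressed (1.38%, near the background of 1.41%). Gata2 is the gene whose cDNA, with or without the insertion, the viruses carry. Transcripts of the virus and of the gene were not told apart here. In the latter list, Gfi1 was the host of the 119 listed as activated (0.84%), and Stab2, Zfp503, Zfp703, Mc1r, P2rx7, Maml2, Mroh2a and Rnf180 of the 228 listed as repressed (3.51%). Besides Mamdc2 and Stab2, WGATAR was present at Oit3, at Ephb2 (an ephrin receptor; 18 reads, 3.5 bp from the summit), at P2rx7 (an ATP-gated channel; 16 reads), at Maml2 (a Notch coactivator; 15 reads), at Rnf144a (12 reads) and at 1 of 2 peaks of Mroh2a. Mroh2a also held exonic peaks shared with 9aa-Ins, of 12 and 11 reads. Intronic GATA2-only peaks lay in 13 (10.4%) and 22 (7.59%) of the genes listed as activated and repressed in the former list. In the latter list they lay in 7 (5.88%) and 48 (21.1%), beside 5.01% of all protein-coding genes. Gene length was not matched in any of these counts.

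Promoter peaks of the host genes were counted next, a comparison on which the choice of the peaks bears. A summit up to 100 bp behind a start counts as a promoter peak and one just beyond as exonic, and 52.4% of the exonic peaks but 9.76% of the intronic peaks lay within 500 bp of a start. Of 309 genes, 58 (18.8%, interval 14.8% to 23.5%) also had a GATA2 peak in a promoter, against 305 of 1058 genes with intronic GATA2-only peaks (28.8%, interval 26.2% to 31.6%). Genes that hosted both kinds of peak counted as exonic only. The difference was -10.1 points (interval -14.9 to -4.64; Fisher's exact test, two-sided, p = 0.000424), and the median gene length was 20.5 kb and 59.2 kb, so that this difference is not read as one between the genes. Counting only summits over 2 kb from a start, the shares were nearly equal, with 30 of 101 genes (29.7%) and 241 of 808 (29.8%), a difference of -0.124 points (interval -8.79 to 9.88; Fisher's exact test p = 1.0). That limit was chosen after the data were seen.

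Another peak of the GATA2 list lay within 1 kb of 34 members and within 5 kb of 76 (24.4%), beside 26.8% of intronic, 25.6% of intergenic and 18% of promoter GATA2-only peaks. A 9aa-Ins peak lay within 5 kb of 16 (5.14%), beside 4.38% of all GATA2-only peaks. In 7 members (2.25%), beside 2.32% of all GATA2-only peaks, 20% or more of the 30-base words around the summit occurred elsewhere in the genome, led by Orai2 (80.2%), Chchd2 (57%) and Coro2a (47.7%), and none of the 7 held WGATAR.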

How the data were processed

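CUT&Tag peak lists from anti-HA libraries of hi–77−/− cells with HA-GATA2 or HA-9aa-Ins were analysed. According to the methods of the study and the labels, the authors used Bowtie2 for alignment to mm10, discarded duplicates and blacklisted regions, and called peaks with MACS3 at a q-value of 1e-06. By those methods, HOMER mergePeaks joined the peaks of both replicates, whereas each deposited list is named as merged and its values imply 1 background, as a single call on pooled reads would. Which applies is not settled by these sources: after a pooled call, a pileup counts reads of both replicates, and a peak need not have been called in each. Tool versions for CUT&Tag are not given in the sources used here. The deposited score was 10 times the −log10 q-value without decimals, and only described peaks. The fold enrichment that the authors deposited (a ratio) was the summit pileup plus 1 over the background plus 1. All folds gave whole pileups within 0.01 (100%), and the Poisson −log10 p-values they imply lay within 0.000532 of those deposited, with 1 background for the genome and 1 peak whose p-value was too small to compute. The summit offset of each peak was also used. No column belonged to other samples.

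Annotation was the comprehensive set of GENCODE M21, and sequence came from GRCm38.p6. Windows for WGATAR, on either strand, reached 100 bp to each side of a summit (201 bases). Distances are from the summit to the nearest protein-coding transcript start, and motif distances from the summit to the centre of the motif. Shares have Wilson 95% intervals, and differences of shares Newcombe intervals. Fisher's exact test (SciPy 1.17.1, two-sided) compared peak classes, with Benjamini-Hochberg adjustment over 5 motif tests (4 for summits over 2 kb from a start). Reads after PCR need not be independent molecules. Intervals cover counting error only, since each protein has 1 list for both replicates. Motif scan, overlap, classes, repeat counts and tests were tested on simulated data. Coding means a summit in coding sequence of a protein-coding transcript, and UTR an annotated UTR without coding sequence.

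The peaks, gene lists and comparisons were chosen with earlier results of these data known. Genes named are hosts of the 15 peaks of highest fold enrichment, of the 12 highest with 2 or more WGATAR, of 2 or more peaks, of the gene lists, and of peaks at the limits of the rule, and not every gene under these rules is reported here. Other genes named in the text were chosen after their values were seen. Supplementary gene lists were matched by gene identifier, and in the list of genes regulated by GATA2 and 9aa-Ins, 36 rows carried the name of another gene than their identifier. Alternatives changed the q-value, overlap, promoter, transcripts, motif window and repeated sequence.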

Additional observations from a re-analysis of the deposited data

How the results depend on the processing

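No paired analysis was possible because each protein has 1 deposited list for both replicates, and for the same reason no replicate could be left out. Of 85 alternative values, 68 kept the direction and side of the threshold, or stayed within 1.5 times the count, and 17 did not. The count of 311 was 193 with the starts of all transcripts as promoters and 118 in coding sequence only, by construction. The difference from intronic peaks passed under every alternative run. It was -19.9 points with the motif within 50 bp and -16.3 points over 2 kb from a start. That from intergenic peaks was -19.1 points with the motif within 50 bp, and fell to -10.1 points, without a call, over 2 kb from a start. That from promoter peaks lost its call with protein-coding transcripts only (4.31 points), with the motif anywhere in the peak (5.21) and with the basic transcript set (2.52). The difference from exonic shared peaks rests on 68 shared peaks and lost its call at q-values of 1e-08 (12.5 points) and 1e-10 (12.4), with a reciprocal overlap of 50% (9.23), summits within 200 bp (9.81), all transcript starts (14.3), protein-coding transcripts only (11.8), the motif anywhere in the peak (2.97), the basic transcript set (10.3) and summits over 2 kb from a start (26.9). Coding minus UTR turned to -1.41 points with the motif anywhere in the peak, without a call in either case. The difference in host promoter peaks was -0.124 points over 2 kb from a start. Except where the construction shows it, the cause was not tested. The basic transcript set, which kept 233 of the 311 peaks, and the limit of 2 kb were chosen after seeing the data. With 9 reads as the lowest pileup in a list, weaker occupancy was not detectable.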
